A study of Mus musculus with 8 samples.

Results

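The mouse genome holds a neighbouring pair of lysozyme genes, Lyz1 and Lyz2, and their UMIs (unique molecular identifiers, each counting 1 captured transcript) were followed cell by cell in 4 droplet libraries of sorted myeloid cells. The 2 genes were taken by name from the 32285 genes counted. Cells of Ythdf2 fl/fl mice (labelled WT) and of Lyz Cre+;Ythdf2 fl/fl mice (labelled cKO), both of the C57BL/6J background and 8 to 10 weeks old, carried MC38 colon carcinoma tumors. Tumors received 20 Gy of ionizing radiation in a single dose (IR) or none (control), and CD45+CD11b+Ly6Chi cells were sorted 3 days later from blood or from tumor, with 5 mice pooled per group. WT and cKO cells were stained with the hashtag antibodies B0301 and B0302 and run together, so that each library (blood control, blood IR, tumor control, tumor IR) held both genotypes. A cell was labelled WT when it had at least 20 hashtag UMIs and as many of B0301 as of B0302 or more, and cKO when B0302 was at least 4 times B0301. This gave 27612 labelled cells, which were 4654 WT and 3816 cKO (blood control), 4137 and 3397 (blood IR), 2534 and 2160 (tumor control), and 3136 and 3778 (tumor IR). All 8 groups share the floxed Ythdf2 alleles, and the WT mice carry no Cre. Each group was 1 pool of mice, so there is no replicate, no test was possible, and every value below comes with its counting error alone.

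Lysozyme cleaves the peptidoglycan of bacterial cell walls. Lyz2 encodes the M form, one of the most abundant transcripts of monocytes, macrophages and neutrophils, and Lyz1 encodes the P form, best known from Paneth cells of the small intestine. In the Lyz Cre line the recombinase was inserted into the Lyz2 gene, so that Cre is made where Lyz2 is made, in myeloid cells. Cells of that line therefore carry a disrupted Lyz2 allele, whereas Lyz1 is left as it was. Whether the mice carried Cre on 1 or on both Lyz2 alleles is not given in the sources used here.

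Both genes lie on the reverse strand of chromosome 10 (GRCm38), where Lyz2 (ENSMUSG00000069516) spans chr10:117277331-117282321 and Lyz1 (ENSMUSG00000069515) spans chr10:117287797-117292868, with 5475 bases between them. Both are protein-coding, with a coding sequence of 447 bases each, of which 425 (95.1%) were the same. The likeness bears on how UMIs can be assigned, since 3′ reads come from the end of a transcript. In the last 500 bases of the Lyz1 transcript, 3.65% of the stretches of 90 bases, 17.7% of those of 50 bases and 45.2% of those of 25 bases also occurred in a Lyz2 transcript. Most stretches of read length were thus particular to Lyz1, and the counting tool's handling of the shared stretches was not tested. The 250 bases before each RefSeq transcription start (GRCm38.p6, reverse strand, chr10:117282273-117282522 for Lyz2 and chr10:117292869-117293118 for Lyz1) are shown because they show how close the pair is outside the coding sequence. For Lyz1 they precede the gene span given above. For Lyz2 that span reaches to 117282321, so the bases nearest the RefSeq start lie inside it. Both stretches are written 5′ to 3′, and capitals mark bases that differ or have no partner when both are aligned.
Lyz2: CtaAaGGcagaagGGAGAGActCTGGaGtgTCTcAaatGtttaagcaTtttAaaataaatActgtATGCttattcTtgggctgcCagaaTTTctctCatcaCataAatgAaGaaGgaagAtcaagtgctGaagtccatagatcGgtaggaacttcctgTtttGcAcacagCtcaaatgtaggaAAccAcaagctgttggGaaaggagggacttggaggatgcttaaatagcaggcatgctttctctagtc
Lyz1: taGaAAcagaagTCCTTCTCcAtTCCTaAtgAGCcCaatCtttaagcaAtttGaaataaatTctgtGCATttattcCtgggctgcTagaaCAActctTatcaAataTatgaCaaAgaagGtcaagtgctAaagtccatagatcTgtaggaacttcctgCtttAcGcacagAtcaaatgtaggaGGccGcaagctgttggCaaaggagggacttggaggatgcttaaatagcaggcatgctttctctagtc
Of 252 aligned columns 200 (79.4%) were the same, with 48 substitutions and 4 gap columns, and the last 50 bases before the start held no difference. Windows of 300 bases around the RefSeq start were searched on both strands. Each gene held 1 copy of GGAAGT, a core bound by ETS factors such as PU.1, at position −100. Each also held 1 copy of the E-box CAGCTG, which began 6 bases downstream of the first transcribed base of RefSeq. These letters occur in 23.8% and 16.3% of 32817 promoters of that length.

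The matrices held between 51653956 and 87703837 gene UMIs per library, groups held between 18962757 and 24867268, and the median cell of a group had 2873.5 to 8592 UMIs. Values are given as CPM (UMIs of the gene per 1000000 gene UMIs of the group) with exact Poisson 95% intervals. Ratios are log2 differences of CPM with 1 UMI added to each sum and an exact conditional binomial interval, and shares of cells have Clopper-Pearson intervals. All intervals cover counting error only. The targeted gene, Ythdf2 on chromosome 4, which encodes a reader of m6A-modified RNA, went against its label. It stood at 33.2, 35.6, 55.5 and 50.7 CPM in cells labelled WT and at 303, 342, 374 and 338 CPM in cells labelled cKO (blood control, blood IR, tumor control, tumor IR, the order kept below). Tags from the 3′ end that lie outside the deleted part check nothing, and genotypes are therefore called by their labels throughout. The tumor libraries also shared droplet barcodes: 7126 called barcodes of tumor control and 4799 of tumor IR had under 20 hashtag UMIs and were left out, against 5 in each blood library. When the labelled barcodes were read from the other tumor matrix, they held UMIs there as well. The number per barcode was a median of 45.5% (tumor control, WT) and 59.0% (tumor IR, WT) of that in their own matrix. In the other matrix Lyz2 in WT was 6868 and 5589 CPM and Lyz1 in cKO 156 and 109 CPM (tumor control, tumor IR), close to the own levels given below. Lyz2 in cKO was 129 CPM for tumor control, against 89.5 CPM in its own matrix, and 96.8 CPM for tumor IR. Counts do not tell whether the UMIs of both matrices were the same. Between 7 and 32 labelled barcodes were common to any pair of libraries.

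In all 4 libraries the cKO cells had far less Lyz2 than the WT cells. Cells labelled WT held it at 14064 CPM (14014 to 14114) and 13830 CPM (13781 to 13879) in the blood libraries, and at 6867 CPM (6831 to 6903) and 5609 CPM (5577 to 5642) in those of tumor. In cells labelled cKO it stood at 138 CPM (133 to 143), 83.4 CPM (79.3 to 87.6), 89.5 CPM (85.8 to 93.4) and 99 CPM (95.1 to 103). Every group labelled WT was above every group labelled cKO, and no counting intervals met. The difference, cKO minus WT, was −6.67 (−6.73 to −6.62), −7.37 (−7.45 to −7.30), −6.26 (−6.32 to −6.20) and −5.82 (−5.88 to −5.77) on the log2 scale, or 102-, 166-, 76.7- and 56.7-fold lower. The size of the fall depended on which cells were counted and on the ambient share subtracted. It was −7.39, −7.45, −7.11 and −6.63 with HTODemux labels (Seurat's own hashtag calls). Without the cKO cells that held mostly Lyz2 it was −7.37, −7.48, −7.80 and −6.90, a deeper fall that the choice of these cells fixes. Subtracting an assumed ambient share of 5% of UMIs left no Lyz2 in cKO in any library. That share was not estimated from the cells, so this does not tell how much of the Lyz2 in cKO was free RNA. A log2 ratio of at least 1 in either direction was reached by 2.25%, 0.632%, 4.89% and 1.08% of the 9654, 9651, 10688 and 10044 genes with at least 100 UMIs over both groups. Downward alone the shares were 1.58%, 0.487%, 1.33% and 0.866%. Among these genes Lyz2 had the lowest ratio in the first 3 libraries and the rank 4 from the bottom in tumor IR.

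Lyz1 went the other way. It stood at 10.7 CPM (9.33 to 12.1), 5.66 CPM (4.72 to 6.73), 5.65 CPM (4.67 to 6.78) and 3.32 CPM (2.58 to 4.21) in cells labelled WT. In cells labelled cKO it reached 169 CPM (163 to 175), 258 CPM (251 to 265), 158 CPM (153 to 163) and 111 CPM (106 to 115). All 4 cKO groups were thus above all 4 WT groups. The log2 differences were 3.98 (3.79 to 4.19), 5.50 (5.26 to 5.78), 4.79 (4.54 to 5.09) and 5.04 (4.71 to 5.43), and the CPM themselves, with no UMI added, were 15.9-, 45.6-, 28.0- and 33.3-fold higher. These ratios depended on which WT cells were counted and on the ambient share subtracted. Leaving out the WT cells with at least 5 Lyz1 UMIs (7 of 4654 in blood control) gave 5.48, 6.30, 5.44 and 5.62, a rise that the choice of these cells fixes. Subtracting an assumed ambient share of 5% gave 4.49, 7.33 and 9.79 in the first 3 libraries and no ratio in tumor IR. In tumor IR a 4-fold margin for both labels gave 5.73 and no doublet removal 4.30. Genes at least 1 log2 unit higher made up 0.663%, 0.145%, 3.56% and 0.209% of those tested, and Lyz1 ranked 3, 3, 6 and 1 from the top.

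**Figure D1:**
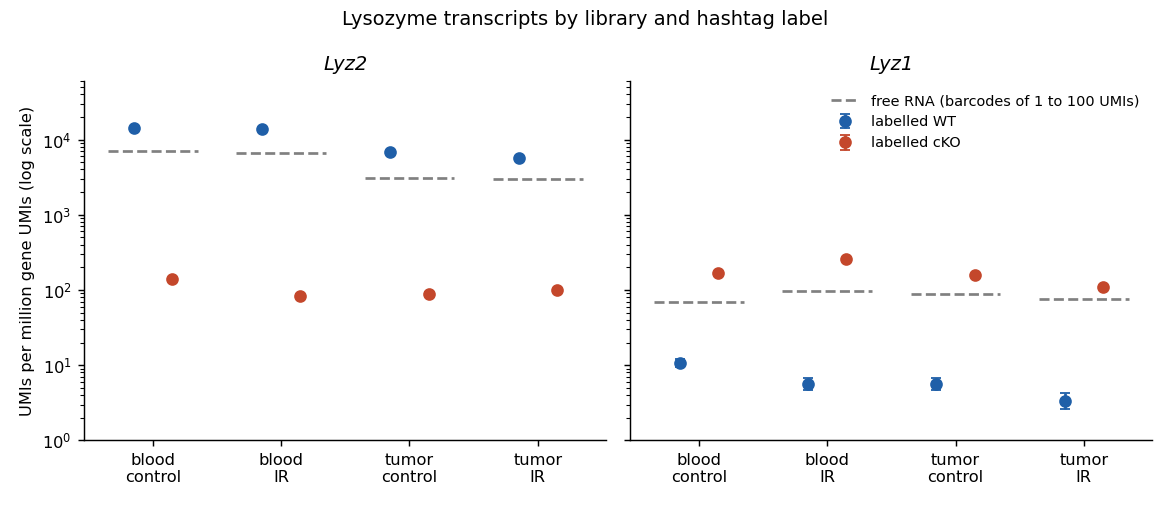
Lyz2 (left) and Lyz1 (right) in CPM on a log axis, for cells labelled WT (blue) and cKO (red) in each of the 4 libraries. Each point is 1 pool, bars are 95% Poisson intervals and often smaller than the point, and dashed lines are the level in barcodes of 1 to 100 UMIs. Lyz2 falls from 14064 to 138 CPM in blood control while Lyz1 rises from 10.7 to 169 CPM, and the other libraries show the same opposite directions.

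The rise of Lyz1 was small beside the fall of Lyz2. Lyz1 in cells labelled cKO amounted to 1.2%, 1.86%, 2.30% and 1.97% of the Lyz2 level in cells labelled WT of the same library. The sum of both transcripts was lower in cKO, with differences of −5.52 (−5.56 to −5.48), −5.34 (−5.38 to −5.31), −4.79 (−4.83 to −4.76) and −4.74 (−4.78 to −4.70) on the log2 scale. What remained was mostly Lyz1, which supplied 55.0% (53.8 to 56.3), 75.6% (74.5 to 76.6), 63.9% (62.6 to 65.1) and 52.8% (51.4 to 54.1) of the lysozyme UMIs of cKO cells, against 0.0757%, 0.0409%, 0.0822% and 0.0591% in WT cells.

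Cells were clustered without Lyz1, Lyz2 and Ythdf2, and clusters were named from marker genes, and 5 of 24 clusters kept only a number. Monocytes held the most Lyz2. Among cells labelled WT, classical monocyte-like cells (led by F13a1 and Chil3) stood at 29635 CPM (29501 to 29771, n = 588 cells) in blood control and 25298 CPM (25191 to 25404, n = 663) in blood IR. In both libraries 100% of them held a Lyz2 UMI, with a median of 308 and 312 UMIs per cell. Nonclassical monocyte-like cells (Ace, Treml4) followed at 18696 CPM (n = 474) and 15759 CPM (n = 337), again with 100% of cells positive. Blood neutrophil-like cells were lower, at 2402 CPM (2369 to 2435, n = 3120) and 2897 CPM (2861 to 2934, n = 2918), and 80.9% and 80.6% of them held a Lyz2 UMI at a median depth of 2499 and 2662 UMIs. Their level varied with the cluster. In blood control it was 1582 CPM in cluster 0, the largest and led by Slc40a1 and Csf3r, 2063 CPM in the interferon-gene cluster 7 (Ifit3b), 3696 CPM in cluster 1 (Retnlg) and 6497 CPM in the 27 WT cells of cluster 13, led by granule genes such as Lcn2 and Ngp. The order was the same in blood IR, with 1545, 2200, 3926 and 8130 CPM.

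In tumor, macrophage-like cells labelled WT held 7968 CPM of Lyz2 (7891 to 8045, n = 615) in control and 5380 CPM (5331 to 5430, n = 1176) after IR. These cells came from clusters 2, 10 and 18 in control and almost wholly from cluster 2, in which interferon genes such as Ifit2 and Rsad2 lead, after IR. Higher levels were found in cluster 4, which passed no naming rule and was led by Adora2b and Nrg1, at 14612 and 12247 CPM. Cluster 8 (Dcstamp, Spp1) stood at 8228 and 5785 CPM and cluster 6 (Mmp13, Mmp12) at 4009 and 5592 CPM. Dendritic cell-like cells gave 2070 CPM (1998 to 2145, n = 181) and 778 CPM (729 to 830, n = 154). The value came from cluster 12 (Cd209a, Ccl17), at 2393 and 928 CPM, whereas the Ccr7 and Ccl22 cells of cluster 19 held 20.0 and 20.3 CPM. Tumor neutrophil-like cells, all but a few in cluster 11, stood at 584 CPM (527 to 645, n = 327) after IR, below blood neutrophil-like cells, and fewer than 20 WT cells were found in control. Blood cluster 17, with Flt3 and Cd209a among its leading genes, held 9489 and 6306 CPM.

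**Figure D2:**
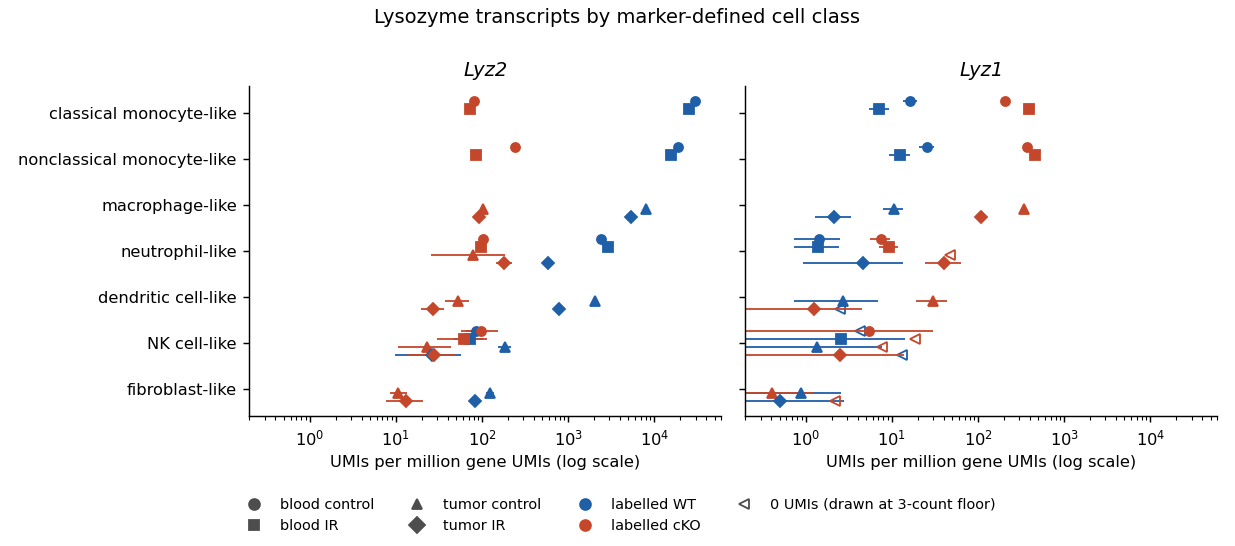
Lyz2 (left) and Lyz1 (right) by marker-defined class on a CPM axis with log steps. Symbols give the library, blue is labelled WT and red labelled cKO, bars are 95% Poisson intervals, and open triangles mark classes with 0 UMIs at the level of 3 UMIs. Lyz2 of WT cells spans from 29635 CPM in classical monocyte-like cells down to 26.5 CPM in NK cell-like cells of tumor IR, and Lyz1 of cKO cells is highest in the monocyte-like and macrophage-like rows.

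NK cell-like cells, which do not make lysozyme and so show what free RNA adds to a droplet, held Lyz2 at 86.2, 71.6, 185 and 26.5 CPM when labelled WT and at 97.3 (57.7 to 154), 62.5 (30.0 to 115), 23.3 (10.7 to 44.2) and 27.7 (13.8 to 49.5) CPM when labelled cKO. Barcodes of 1 to 100 UMIs, which hold mostly free RNA, carried 7036, 6647, 3122 and 2969 CPM of Lyz2 and 69.0, 97.1, 88.0 and 74.8 CPM of Lyz1. In blood, most Lyz2 levels of cKO myeloid classes lay within the counting interval of the cKO NK cell-like cells, which is wide. They were 102 and 96.4 CPM in neutrophil-like, 80.9 and 72.9 CPM in classical monocyte-like, and 244 and 84.5 CPM in nonclassical monocyte-like cells, and only the 244 CPM (232 to 257) of blood control lay beyond the NK cell-like interval. Without 12 of the 618 cells behind that value, those with mostly Lyz2, it was 74.2 CPM (67.3 to 81.6), which their choice lowers by itself. Median depth under the cKO label (blood control, blood IR) was 3086 and 3376 UMIs in NK cell-like cells. In classical and nonclassical monocyte-like cells it was 10179 and 13166, and 9107.5 and 11696.5. The share of cells with a Lyz2 UMI was 28.6% and 22.7%, 48.8% and 50.7%, and 48.2% and 55.6%. Like CPM at unlike depth means unlike UMIs per droplet, and whether these monocyte-like cells exceed free RNA was not tested. Macrophage-like cells labelled cKO stood at 101 and 92.8 CPM, beyond the NK cell-like intervals of the same libraries. Without the cells of mostly Lyz2 they stood at 39.4 CPM (34.8 to 44.4) and 44.2 CPM (40.3 to 48.4), a fall that the choice of these cells fixes. Set against the WT level of the same class, Lyz2 in cKO amounted to 0.273% and 0.288% in classical monocyte-like cells and to 4.24% and 3.33% in blood neutrophil-like cells, whose WT level is nearer to that of free RNA. Some lymphoid groups stood apart: 46 T cell-like cells labelled WT in blood control held 10052 CPM with a median of 1 UMI and up to 464, and in the 31 B cell-like cells a single cell carried 321 of the 330 Lyz2 UMIs. Fibroblast-like cells of the tumor held 124 and 81.9 CPM under the WT label and 10.7 and 13 CPM under the cKO label, and 6 of 118 and 2 of 82 of the WT cells held 88.8% and 84.6% of their Lyz2 UMIs. Likewise 2 of the 169 NK cell-like cells behind the 185 CPM held 81.5% of its UMIs.

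Lyz1 of cKO cells was highest in monocytes and macrophages and low in blood neutrophils. Nonclassical monocyte-like cells held 374 CPM (358 to 390, n = 618) and 456 CPM (434 to 478, n = 306) in blood control and blood IR. Classical monocyte-like cells held 205 CPM (193 to 219, n = 455) and 395 CPM (381 to 409, n = 584). In CPM the order of both classes was the reverse of that of Lyz2 in WT, where the classical class was higher. In blood IR the share of cells with a Lyz1 UMI was alike, at 18.3% (15.3 to 21.7) of classical and 18.0% (13.8 to 22.7) of nonclassical monocyte-like cells. Macrophage-like cells held 343 CPM (329 to 357, n = 641) in tumor control and 109 CPM (102 to 115, n = 1484) in tumor IR, cluster 4 held 170 and 215 CPM, cluster 6 held 234 and 91.1 CPM, and cluster 8 held 157 and 142 CPM. Dendritic cell-like cells gave 29.7 CPM (19.0 to 44.2, n = 103) in control and 1.25 CPM (0.151 to 4.51, n = 213) after IR. Blood neutrophil-like cells gave only 7.39 CPM (5.59 to 9.60, n = 2544) and 9.22 CPM (7.08 to 11.8, n = 2409). Tumor neutrophil-like cells held 40.5 CPM (24.4 to 63.3, n = 244) after IR, on 19 UMIs of which a single cell had 13, and 0 UMIs in the 29 cells of control. Relative to Lyz2 in WT cells of the same class, Lyz1 in cKO reached 0.308% and 0.318% in blood neutrophil-like, 0.693% and 1.56% in classical monocyte-like, 2.0% and 2.89% in nonclassical monocyte-like and 4.31% and 2.02% in macrophage-like cells, and 6.95% in the neutrophil-like cells of tumor IR.

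Even in these classes most cKO cells held no Lyz1 UMI. The share with at least 1 was 14.1% and 18.3% of classical monocyte-like, 16.7% and 18.0% of nonclassical monocyte-like, 31.7% and 11.8% of macrophage-like and 0.708% and 0.872% of blood neutrophil-like cells. NK cell-like cells labelled cKO gave 1.79% (1 UMI in 56 cells, median depth 3086 UMIs), 0%, 0% and 0.769%, and neutrophil-like cells labelled WT gave 0.385% (0.199 to 0.671) and 0.411% (0.213 to 0.717). At a median depth of 2632 and 2650 UMIs the share in cKO neutrophil-like cells, 0.708% (0.420 to 1.12) and 0.872% (0.540 to 1.33), met these intervals and those of the NK cell-like cells. Their Lyz1 level was nonetheless above the 1.42 CPM (0.735 to 2.48) and 1.41 CPM (0.727 to 2.46) of WT neutrophil-like cells, with 66.1% and 58.7% of the UMIs in 4 and 3 cells. Depth differed between classes, from a median of 2632 UMIs in neutrophil-like cells of blood control to 13166 in classical monocyte-like cells of blood IR. After each cell was thinned to 1000 UMIs, the shares were 5.49% and 9.59% in classical monocyte-like, 9.39% and 9.48% in nonclassical monocyte-like, 16.3% and 5.40% in macrophage-like and 0.354% and 0.415% in neutrophil-like cells, and 0% in NK cell-like cells of all 4 libraries. In WT cells the thinned Lyz2 share was 69.9%, 71.5%, 75.3% and 73.2% over all cells of the libraries, against 2.33%, 2.89%, 7.98% and 4.14% for Lyz1 in cKO.

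The UMIs of Lyz1 came from few cells with many copies each. In cells labelled cKO, 85, 86, 178 and 120 cells held at least 5 Lyz1 UMIs, which is 2.23% (1.78 to 2.75), 2.53% (2.03 to 3.12), 8.24% (7.12 to 9.48) and 3.18% (2.64 to 3.79) of the cells. These cells supplied 95.2%, 97.0%, 93.1% and 88.1% of the Lyz1 UMIs, and the highest single cells held 173, 171, 114 and 114. The 1% of cells with the most Lyz1 UMIs held 76.5%, 67.1%, 29.9% and 60.3% of them. For Lyz2 in WT cells the same 1% held 8.26%, 7.74%, 7.19% and 8.54%, and 51.4%, 56.8%, 71.0% and 67.4% of cells had at least 5 Lyz2 UMIs. Lyz1 was therefore carried by a small share of cells, each at a median of 2460, 3826, 1436 and 1875 CPM, whereas Lyz2 was spread over whole classes.

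**Figure D3:**
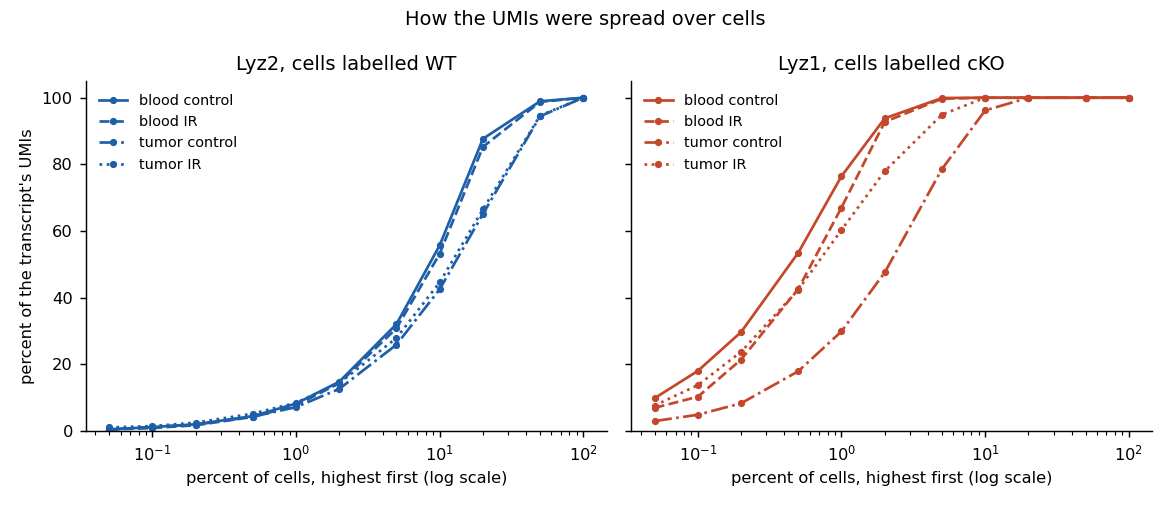
Share of the UMIs of Lyz2 in WT-labelled cells (left) and of Lyz1 in cKO-labelled cells (right) that the cells with the most of them hold, against the percent of cells on a log axis, with a line per library. The right-hand lines reach 29.9% to 76.5% at 1% of cells, and the left-hand lines 7.19% to 8.54%.

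Within a class, cKO cells with at least 5 Lyz1 UMIs were compared with those of 0 to describe what else differed. Depth was alike in blood: a median of 10323 against 10198 UMIs in classical monocyte-like cells of blood control (n = 23 and 391), and 12187 against 13180 in blood IR (n = 54 and 477). Their hashtag ratios were alike as well, at 6.34 against 6.31 and 6.58 against 6.75 on the log2 scale. Ythdf2 stood at 308 CPM (244 to 385) against 422 CPM (402 to 442) in blood control and at 380 CPM (336 to 429) against 454 CPM (438 to 471) in blood IR, lower in the cells with Lyz1. In nonclassical monocyte-like cells it was 379 CPM (332 to 430) against 442 CPM (423 to 461) in blood control (n = 57 and 515) and 468 CPM (398 to 546) against 500 CPM (475 to 526) in blood IR (n = 28 and 251), and the intervals met in both libraries. In macrophage-like cells it was 675 CPM (634 to 718) against 607 CPM (584 to 630) in tumor control, higher in the cells with Lyz1, and 428 CPM (372 to 489) against 382 CPM (370 to 395) in tumor IR, where the intervals met. In tumor control the 116 macrophage-like cells with Lyz1 had a summed macrophage marker level of 24848 CPM against 17446 CPM in the 438 cells without, and a median depth of 11975 against 9315 UMIs, whose part in the difference was not tested. After IR the marker levels were 11326 and 10201 CPM (n = 64 and 1309). In blood, neutrophil markers were higher in the cells with Lyz1, at 3580 against 2391 CPM and 1935 against 1741 CPM in classical and at 5993 against 4636 CPM and 7358 against 2812 CPM in nonclassical monocyte-like cells (blood control, then blood IR). In cluster 4 of tumor IR they were 1451 against 304 CPM (n = 27 and 497), and in cluster 8 of tumor control 97.5 against 74.7 CPM. In macrophage-like cells they were lower in the cells with Lyz1, at 27.8 against 45.1 CPM in tumor control and 116 against 181 CPM in tumor IR. The part of these markers was not tested. Lyz1 was most frequent in macrophage-like cluster 10, led by Folr2, Mrc1 and Ccl8, where 41.7% of 360 cKO cells in control and 28.2% of 78 after IR held a UMI, against 10.9% and 10.8% in cluster 2.

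WT cells with Lyz1 were rare. At least 5 Lyz1 UMIs were found in 7 of 4654, 3 of 4137, 4 of 2534 and 2 of 3136 of them. Without these cells Lyz1 in WT was 3.75, 3.21, 3.6 and 2.20 CPM, which their choice lowers by itself. In blood all 7 and all 3 of these cells also held at least 5 Lyz2 UMIs, and their median hashtag ratio, −4.41 and −4.93, was that of other WT cells (−4.50 and −4.82). The highest was a nonclassical monocyte-like cell of blood control with 42 Lyz1 and 152 Lyz2 UMIs among 5708. In tumor 2 of the 4 and 0 of the 2 cells held as many Lyz2 UMIs, and the 2 cells of tumor IR had nearly equal hashtags (median −0.16 on the log2 scale).

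The transcripts could be set against the hashtag of each cell, since the labelling rule did not use them. Among cells with at least 5 lysozyme UMIs, 0 of 2393, 0 of 2352, 2 of 1802 and 2 of 2116 cells labelled WT held mostly Lyz1, which allows up to 0.154% and 0.157% in blood and gives 0.111% (0.0134 to 0.40) and 0.0945% (0.0114 to 0.341) in tumor. Among cells labelled cKO, 18 of 103, 23 of 113, 40 of 222 and 38 of 159 held mostly Lyz2, or 17.5% (10.7 to 26.2), 20.4% (13.4 to 29.0), 18.0% (13.2 to 23.7) and 23.9% (17.5 to 31.3). Cells against their label were thus few among the WT cells that reached 5 UMIs. That minimum was reached by 51.4%, 56.9%, 71.1% and 67.5% of WT cells but by 2.70%, 3.33%, 10.3% and 4.21% of cKO cells. A cKO cell with a wrong WT label would seldom be counted, so the WT shares do not measure how often labels are wrong. The cKO shares cover only the few cells that reached it. The share of mostly-Lyz2 cells under the cKO label depends on the minimum, at 50.2%, 50.9%, 25.9% and 35.7% for 3 UMIs and 9.43%, 1.47% and 32.7% (blood control, blood IR, tumor IR) for 20. They supplied 39.5%, 8.86%, 66.1% and 53.3% of the Lyz2 UMIs of cKO cells. Without them Lyz2 in cKO was 84.8, 77.4, 30.8 and 47.0 CPM, or 0.603%, 0.559%, 0.449% and 0.838% of the WT level, which their choice lowers by itself. In blood IR these 23 cells had the hashtag ratio of other cKO cells (median 6.77 against 6.64 on the log2 scale), and 14 of them were classical monocyte-like and deep, with 5 to 7 Lyz2 UMIs. In the other libraries their ratio was lower than that of all cKO cells, at 2.89 against 6.21, 2.62 against 4.31 and 2.67 against 4.37. Cells with both transcripts at 5 UMIs or more were few, with 3, 1, 1 and 2 under the cKO label and 7, 3, 2 and 0 under the WT label.

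**Figure D4:**
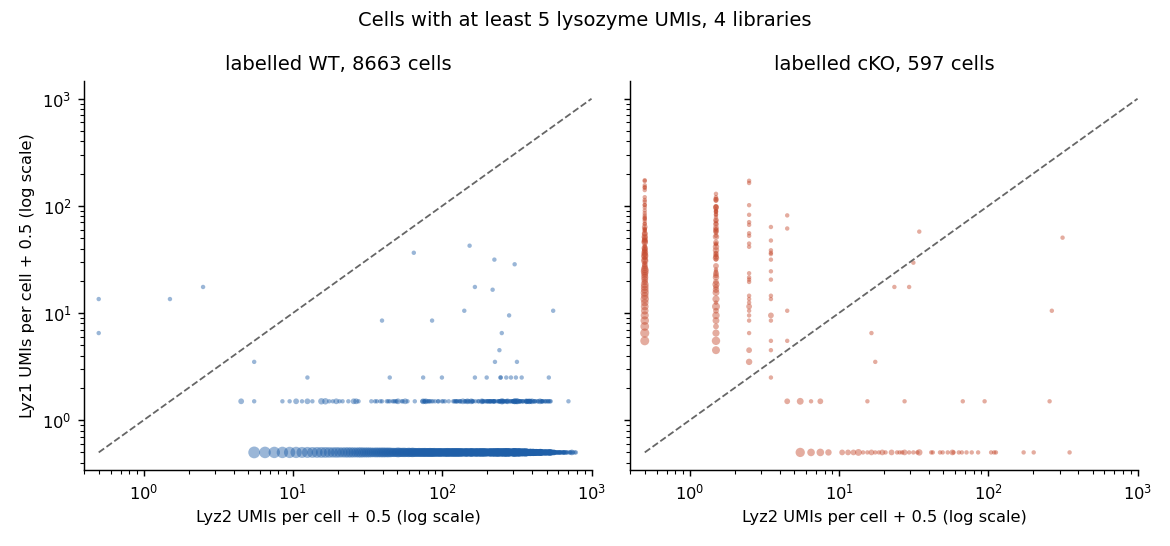
Lyz1 against Lyz2 UMIs per cell, 0.5 added, on log axes, for the cells with at least 5 lysozyme UMIs of all 4 libraries. Point size grows with the number of cells at the same values and the dashed line marks equal counts. WT-labelled cells (left) lie along the bottom and cKO-labelled cells (right) along the left edge, apart from the cells with mostly Lyz2 near the lower edge of the right panel.

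From low to high hashtag ratios of B0302 to B0301, Lyz2 also fell within a library, though not steadily on the WT side in tumor. The 289 to 385 barcodes per library that lay between the labels were included. In blood control Lyz2 went from 14434 CPM (n = 3974) at log2 ratios below −4 to 6118 CPM (n = 209) between 0 and 1, 2389 CPM (n = 125) between 1 and 2, and 85.7 CPM (n = 2350) above 6. Lyz1 was 9.02 and 182 CPM at the same ends but took no steady course between them, with 2.59 CPM between 0 and 1 and 422 CPM (n = 29) between 2 and 3. In tumor IR it was highest between 2 and 3, at 405 CPM, and fell to 78.8 CPM between 4 and 6. The between-label cells were deep, with a median of 5195 and 9537 UMIs against 2885 and 3422.5 at the ends. The cells of the cKO label nearest to its bound held more Lyz2 than the rest of that label. At ratios between 2 and 3 it was 1775 CPM in blood control, 436 CPM (n = 171) in tumor control and 950 CPM (n = 202) in tumor IR, and between 3 and 4 in tumor it was 78.8 CPM (n = 612) and 88.5 CPM (n = 1059). Over the WT side of tumor control, Lyz2 stayed between 5751 and 10855 CPM from below −4 to the bin between −1 and 0, although 428 cells of that last bin had hashtags close to equal. That bin was lower elsewhere. In tumor IR Lyz2 ran at 4952, 4147, 5823 and 9371 CPM from below −4 to the bin between −2 and −1, and at 3471 CPM between −1 and 0. Lyz1 was 1.65 and 36.8 CPM in the last 2 of these bins. In blood control Lyz2 was 6914 CPM between −1 and 0 against 13198 CPM between −4 and −3.

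**Figure D5:**
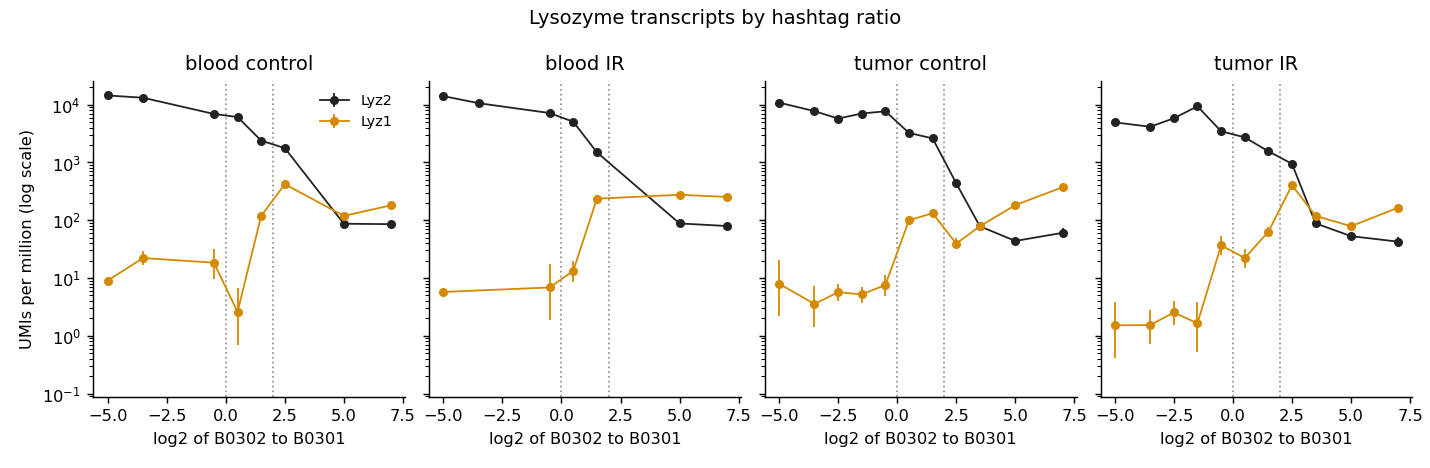
Lyz2 (black) and Lyz1 (orange) in CPM on a log axis, against the log2 ratio of hashtag B0302 to B0301, in bins for each library. Dotted lines at 0 and 2 bound the barcodes between the labels, the open-ended outer bins are drawn beyond the last bound, bars are 95% Poisson intervals, and a bin with 0 UMIs is not drawn. In blood control Lyz2 is 14434 CPM in the leftmost and 85.7 CPM in the rightmost bin, where Lyz1 is 9.02 and 182 CPM, with an uneven course of Lyz1 between them.

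Radiation was compared with control within tissue and label, where groups of different libraries were set against each other. Lyz2 in WT hardly moved in blood, at −0.02 (−0.03 to −0.02) IR minus control, while 1.33% of genes passed a log2 ratio of 1 in either direction. The classes did not move together. Lyz2 was −0.23 (−0.24 to −0.22) in classical and −0.25 (−0.26 to −0.23) in nonclassical monocyte-like cells, and 0.27 (0.24 to 0.30) in neutrophil-like cells. In tumor the WT difference was −0.29 (−0.30 to −0.28) against a median of −0.13 over all genes tested, 5.76% of which passed the fold. Within macrophage-like cells it was −0.57, but −0.43 in cluster 2 and 0.33 in cluster 10, so the class value also carries the change in cluster make-up. Dendritic cell-like cells gave −1.41 (−1.52 to −1.31), from 2070 CPM in control to 778 CPM after IR. Their control level was 824 CPM with the 4-fold margin for both labels. The level after IR was not computed with that margin, so the difference under it is not known.

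Lyz1 in cKO was higher after IR in blood and lower in tumor, with neither past the fold that 1.37% and 21.9% of genes passed. In blood the difference was 0.61 (0.54 to 0.67), with 0.94 (0.84 to 1.05) in classical and 0.29 (0.19 to 0.38) in nonclassical monocyte-like cells. It rests on few cells, since 85 and 86 cKO cells of blood control and IR held 95.2% and 97.0% of the UMIs. The share of cells with a Lyz1 UMI was 5.08% (4.41 to 5.83) and 5.45% (4.71 to 6.26), and the intervals met. At least 5 UMIs were held by 5.05% and 9.25% of classical and 9.22% and 9.15% of nonclassical monocyte-like cells. In tumor the difference was −0.52 (−0.59 to −0.45), against a median of −0.18 over all genes tested, and −1.66 (−1.76 to −1.56) in macrophage-like cells. Within clusters 2 and 10 the level was not lower after IR. Cluster 2 went from 71.8 CPM (56.3 to 90.3, n = 128) to 86.8 CPM (81.2 to 92.7, n = 1396), a difference of 0.27, and the intervals met. Cluster 10 went from 428 CPM (407 to 449, n = 360) to 601 CPM (533 to 675, n = 78), a difference of 0.49. Its median depth was 9877.5 UMIs in control and 4178 after IR, and the part of depth was not tested. Cluster 18, a cycling cluster (Mki67, Top2a) with 328 CPM in 153 control cells, held under 20 cKO cells after IR. The lower class value thus went with fewer cells in the clusters with high Lyz1. Few cells decided the tumor sums as well, since 178 and 120 cKO cells of tumor control and IR held most of the Lyz1 UMIs. In WT, where Lyz1 rests on 231, 127, 115 and 68 UMIs, IR minus control gave −0.91 (−1.24 to −0.60) for blood, −0.76 (−1.22 to −0.32) for tumor, and the few cells with at least 5 UMIs held 150, 55, 42 and 23 of them.

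Between tissues, Lyz2 in WT was lower in tumor, with a tumor minus blood difference of −1.03 (−1.04 to −1.03) in control and −1.30 (−1.31 to −1.29) after IR. The tissues hold different classes, and of the named classes only neutrophil-like and NK cell-like cells reached 20 cells of a label in both. For neutrophil-like cells labelled WT after IR the levels were 2897 CPM in blood, in clusters 0, 1, 7 and 13, and 584 CPM in tumor, in cluster 11. Lyz1 in cKO differed little in control, at −0.10 (−0.16 to −0.03), and was lower in tumor after IR, at −1.22 (−1.29 to −1.15).

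The other lysozyme genes were nearly silent. Of 8 further members of the family listed in the files, Lyzl4 had 33 UMIs over all groups, Lalba 3, Lyg1 1, Spaca5 1, and Lyzl1, Lyzl6, Lyg2 and Spaca3 0, so none reached 100 UMIs. Among 16 antibacterial genes of granules and lysosomes, 13, 14, 9 and 9 were tested in the 4 libraries. In blood control 7 passed the fold upward in cKO and 2 downward, in blood IR 0 and 5, and in each tumor library 0 and 1, beside 0.663%, 0.145%, 3.56% and 0.209% upward and 1.58%, 0.487%, 1.33% and 0.866% downward over all genes tested. The median was 1.44, −0.62, −0.47 and −0.08, beside 0.01, 0.05, 0.11 and 0.03 over all genes tested. Ngp, a granule protein of immature neutrophils, stood at 141 CPM in WT and 1105 CPM in cKO in blood control and at 307 and 128 CPM in blood IR. Ltf, encoding lactoferrin, followed the same order with 44.8 and 264 CPM and then 84.7 and 34.6 CPM. The cell make-up moved with them: neutrophil-like cluster 13 (Lcn2, Ngp) held 27 WT and 417 cKO cells in blood control and 23 and 31 in blood IR, and cluster 20 (Ltf, Ngp, Camp) held 62 cKO and under 20 WT cells in blood control, whose part in these values was not tested. These granule genes turned with the library, whereas Lyz2 and Lyz1 kept their directions in all 4. Cybb, the catalytic subunit of the phagocyte oxidase, differed by 0.21, 0.12, −0.23 and 0.01, and Slc11a1, a phagosomal metal transporter, by 0.24, −0.12, −0.47 and −0.14.

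The genes beside the locus were read as well. Of 14 other protein-coding genes within 500 kb of the pair, 8 were tested in each library and 0 passed the fold in either direction, where 2.25%, 0.632%, 4.89% and 1.08% of all genes did, so the count is near the background. They had medians of 0.09, 0.05, 0.18 and 0.05. Cpsf6, which encodes a subunit of the pre-mRNA cleavage factor, stood at 34.7 and 39.4 CPM in WT and cKO of blood control. Mdm2, the ubiquitin ligase that acts on p53, stood at 50.8 and 50.8 CPM there and at 160 and 161 CPM in tumor IR. The largest differences were 0.60 for the nucleoporin gene Nup107 and 0.57 for the chromatin reader gene Yeats4, both in blood control.

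Across classes, the genes whose level ran most like Lyz2 in WT cells were Csf1r (Pearson r = 0.974), Hexa (0.973), Cebpa (0.965), Gpr141 (0.962) and Clec12a (0.960), over 17 sums of a class in a library. Csf1r encodes the receptor for the macrophage growth factor CSF1, Hexa a lysosomal hexosaminidase and Cebpa a myeloid transcription factor. For Lyz1 in cKO cells they were Selenbp1 (r = 0.960), Tom1 (0.942), Tmem86a (0.937), Cebpa (0.936) and Emilin1 (0.934), over 15 sums. Cebpa was on both lists. These are descriptions among 11116 and 11286 genes, on log2(CPM + 10), and the sums of a library share their sequencing depth and free RNA.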

How the data were processed

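The authors sequenced 10x 3′ v3.1 libraries with TotalSeq-B hashtags and deposited raw UMI counts for 32285 genes and 2 hashtags, for all barcodes. Per the labels they used Cell Ranger 6.0.1 and Seurat 4.0.6 on mm10; the matrix headers name an earlier Cell Ranger release, and the cause of the difference is not given in the sources used here. Positions and transcripts are from the GENCODE annotation of GRCm38, promoters from RefSeq.

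Cells were called again from these counts by an order-of-magnitude threshold plus an ambient test at a Benjamini-Hochberg level of 0.01, with at least 200 genes, at most 25% mitochondrial UMIs and at least 20 hashtag UMIs. Scrublet's own threshold marked 0 to 2 barcodes per library, so the top 6% of its scores (287 to 481 barcodes) were removed. Seurat 5.3.0 clustered the cells on 2000 variable genes, 40 principal components and Louvain resolution 0.8, without Lyz1, Lyz2 and Ythdf2. Classes needed 20 cells in a group, and named genes were both members, Ythdf2, the lysozyme family and antibacterial lists, protein-coding neighbours within 500 kb and the 5 genes most correlated with each member. Expression was summed per group and divided by gene UMIs in Python 3.11.15 (numpy 2.4.6, scipy 1.17.1, scanpy 1.11.5), and edgeR 4.0.16 gave TMM factors only. The steps were tested on simulated data.

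With 1 pool per group no test was run and p-values are not given. The members and lists were chosen with earlier results of these data known. Alternatives covered hashtag rule, cell calling, doublets, mitochondrial limit, scaling, added counts, ambient subtraction, tumor matrices, clustering, thinning and minimum counts.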

Additional observations from a re-analysis of the deposited data

Results flagged for a closer look

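With 1 pool per group the sums below move in opposite directions, and none of these differences between effects was tested. Lyz1, IR minus control on the log2 scale, was −0.91 in blood WT and 0.61 in blood cKO, while in tumor cKO it was −0.52. For Lyz2 the same contrast was −0.29 in tumor WT and 0.14 in tumor cKO, and −0.73 in blood cKO. Lyz2, tumor minus blood, was −1.30 in WT after IR and 0.25 in cKO after IR, while it was −0.62 in cKO of control. The Lyz2 sums of cKO cells were 138 and 83.4 CPM in blood, within the NK cell-like intervals of 57.7 to 154 and 30.0 to 115 CPM, and 89.5 and 99 CPM in tumor, above those of 10.7 to 44.2 and 13.8 to 49.5 CPM. The sums mix classes of different depth, so these CPM do not compare UMIs per droplet.

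The barcodes with under 20 hashtag UMIs enter no comparison, and both transcripts were well above the limit of 3 UMIs there. In tumor control 7126 of them held Lyz1 at 57.2 CPM and Lyz2 at 2580 CPM, with a limit of 0.101 CPM. In tumor IR 4799 of them held Lyz1 at 88.8 CPM and Lyz2 at 3204 CPM, with a limit of 0.137 CPM. Both pairs lie between the WT and cKO levels of the labelled cells of their library. Whether these barcodes belong to the other tumor library, with which barcodes are shared, was not tested.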

How the results depend on the processing

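No paired analysis was possible because each group is 1 pool and the labels give no replicate numbers to pair; for the same reason no replicate was left out. Limits: intervals cover counting error only, so a value is called moved when it left its counting interval, which is narrow at these depths. Settings that leave out cells by their lysozyme UMIs or keep 1 class or cluster were chosen after seeing the data. Leaving out cells by their lysozyme UMIs widens the gap between cKO and WT by the choice itself. In no setting that gave a ratio did Lyz2 or Lyz1 change direction between cKO and WT. How much free RNA adds to Lyz1 at low counts and to Lyz2 in cKO was not measured. Subtracting an assumed ambient share of 5% of each cell's UMIs left no Lyz2 in cKO in any library and no Lyz1 in WT of tumor IR, so no ratio was formed there. Resolution 0.4 gave no nonclassical monocyte-like class and, in cKO, no dendritic cell-like class of 20 cells. The causes of the moves were not tested.

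Lyz2, cKO minus WT (blood control, blood IR, tumor control, tumor IR), was −7.39, −7.45, −7.11 and −6.63 with HTODemux labels and −7.37, −7.48, −7.80 and −6.90 without the cKO cells with mostly Lyz2. Without Scrublet removal it was −6.58 in blood control, −5.88 in tumor control and −5.31 in tumor IR. Taking all barcodes from 500 UMIs upward gave −7.30 in blood IR. In tumor control and tumor IR the same 4-fold margin for both labels gave −6.17 and −5.67, and the order-of-magnitude threshold alone −6.54 and −5.90. In tumor control TMM factors gave −6.33 and the other tumor matrix −5.74.

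Lyz1, cKO minus WT, was 5.48, 6.30, 5.44 and 5.62 without the WT cells of at least 5 Lyz1 UMIs. Ambient subtraction gave 4.49 in blood control, 7.33 in blood IR and 9.79 in tumor control. HTODemux labels gave 5.24 in tumor control, and in tumor IR the same margin gave 5.73 and no Scrublet removal 4.30.

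Lyz2 in WT, IR minus control, was −0.0557 in blood when all barcodes from 500 UMIs upward were taken, −0.0339 without Scrublet removal, −0.0463 with TMM factors, −0.23 in classical and −0.25 in nonclassical monocyte-like cells alone, and 0.27 in neutrophil-like cells alone, the opposite direction. In tumor it was −0.35 with the same margin, −0.27 without Scrublet removal, −0.14 with TMM factors, −0.43 in macrophage-like cluster 2 and, reversed, 0.33 in cluster 10. Lyz1 in cKO, IR minus control, was 0.54 in blood with TMM factors, 0.94 in classical and 0.29 in nonclassical monocyte-like cells. In tumor it was −0.78 with HTODemux labels and −0.31 with TMM factors. It was of opposite sign, at 0.27, in cluster 2, where the counting intervals of the levels met, and at 0.49 in cluster 10.

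By class, Lyz2 in WT neutrophil-like cells of blood control was 2507 CPM with the order-of-magnitude threshold and 2364 CPM without Scrublet removal. In classical monocyte-like cells Lyz2 in WT was 25067, 28120 and 27728 CPM at resolution 0.4, at 1.2 and without Scrublet removal, and Lyz1 in cKO was 299, 265 and 221 CPM, or 219 CPM when clustered with Lyz1, Lyz2 and Ythdf2. In nonclassical monocyte-like cells Lyz2 was 12841 CPM at resolution 1.2, 19664 CPM with the same margin and 14284 CPM without Scrublet removal, and Lyz1 was 352 CPM when clustered with the 3 genes and 422 CPM without Scrublet removal. In macrophage-like cells of tumor control Lyz2 was 7472 and 7851 CPM at resolution 0.4 and 1.2, 9284 CPM clustered with the 3 genes, 8233 CPM with the same margin, 8126 CPM with the threshold alone and 7016 CPM without Scrublet removal, and Lyz1 was 245, 396 and 329 CPM at resolution 0.4, clustered with the 3 genes and without Scrublet removal. In dendritic cell-like cells Lyz2 was 20.0 CPM at resolution 0.4, where the Ccr7 cells alone kept the name, 1941 CPM clustered with the 3 genes, 824 CPM with the same margin and 2239 CPM without Scrublet removal.

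Of cKO cells with lysozyme UMIs, those with mostly Lyz2 made up 50.2%, 50.9%, 25.9% and 35.7% at a minimum of 3 UMIs, 9.43%, 1.47% and 32.7% (blood control, blood IR, tumor IR) at 20, and 7.78%, 6.38% and 10.7% (blood control, tumor control, tumor IR) with HTODemux labels. Of WT cells in tumor, 0 of 1370 and 0 of 1427 held mostly Lyz1 at 20 UMIs, and 0 of 1671 in tumor IR with the same margin.

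Genes past the fold, cKO against WT, numbered 217, 61, 523 and 108, and 521, 251, 989 and 395 at 20 UMIs and 2561, 2148, 3077 and 2403 with no filter. For IR against control they numbered 130 (blood WT), 130 (blood cKO), 586 (tumor WT) and 2343 (tumor cKO), 410, 404 and 1148 at 20 UMIs in the first 3, and 2596, 2467, 3343 and 6056 with no filter. The thinned share at 500 in place of 1000 UMIs was lower in each of the 8 cases given.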
